A study of Arabidopsis thaliana with 6 samples.

Results

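The WRKY family of Arabidopsis thaliana is read here through 7 genes: WRKY1 (AT2G04880), WRKY6 (AT1G62300), WRKY20 (AT4G26640), WRKY22 (AT4G01250), WRKY42 (AT4G04450), WRKY47 (AT4G01720) and WRKY53 (AT4G23810). They were found from a list of 59 WRKY loci by keeping each locus with a probe set annotated to that gene alone, and each of the 7 had 1 such probe set. The other 52 loci were not analysed here. Among those 52 were all 25 loci grouped under defence, so WRKY18, WRKY33 and WRKY40, much studied in immunity, were not read. Defence is represented only by WRKY6, WRKY22 and WRKY53, which act in it beside senescence. The 7 genes are 7 of 22746 probe sets tested, and they do not describe the family.

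Seedlings of the Columbia ecotype, 7 days old and grown whole in multi-well plates, received 5 µM of a synthetic propanamide, called the compound here, that joins a dichlorophenoxy group to a methoxyphenyl ring bearing an isobutyrylamino group, or the solvent dimethyl sulfoxide (DMSO) alone. RNA was taken after 24 h and read on 6 Affymetrix ATH1 arrays, 3 for each treatment, with both treatments carrying the replicate numbers 1, 2 and 3. Each replicate pooled the seedlings of 24 wells sown with 5 seeds each. No mutant or transgene was used, and every group held the solvent. Values are log2 expression after robust multi-array averaging (RMA), and 1 unit is a 2-fold difference. In pooled whole seedlings, fewer cells of a type and less RNA per cell cannot be told apart. The leaf marker RCA, of Rubisco activase, was at 13.75 or higher on the log2 scale in all 6 arrays and the root marker PYK10 at 12.59 or higher, so shoot and root were both present in each pool. The root hair expansin genes EXPA7 and EXPA18 fell with the compound (log2 fold changes of -2.10 and -1.81, limma adjusted p of 0.042 and 0.0266). Whether that fall bears on any WRKY value was not tested.

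WRKY proteins are plant transcription factors named after the amino acids WRKY at the start of their DNA-binding domain. That domain folds around a zinc ion and reads a short DNA element called the W-box, which is common in the promoters of defence and senescence genes and of WRKY genes themselves. Many WRKY genes are induced within minutes to hours by microbes, wounding, hydrogen peroxide or salicylic acid, and some drive leaf senescence or the response to poor nutrition. MAP kinases phosphorylate several of them, and VQ-motif proteins bind them.

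After 24 h none of the 7 genes passed the test between compound and DMSO, and WRKY53 came nearest, when arrays of the same number were compared. The count passing limma at a Benjamini-Hochberg adjusted p below 0.05 was 0 of 7, and 0 of 7 had an unadjusted p below 0.05. Over all probe sets 0.343% were called and 5.36% had an unadjusted p below 0.05. With the replicate number as a block, which compares each compound array with the DMSO array of the same number, the calls were again 0 of 7 against 3.80% of all probe sets. In that fit 1 of 7, WRKY53, had an unadjusted p below 0.05, against 16.0% of all probe sets. In 0 of 7 genes were the 3 compound arrays separate from the 3 DMSO arrays, a pattern seen in 9.74% of all probe sets. The mean was higher with the compound in 6 of 7 genes, as it was in 54.8% of all probe sets, and the median log2 fold change was 0.18 against 0.01. With so few genes, and none called, these counts carry no statement on the family.

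**Figure D1:**
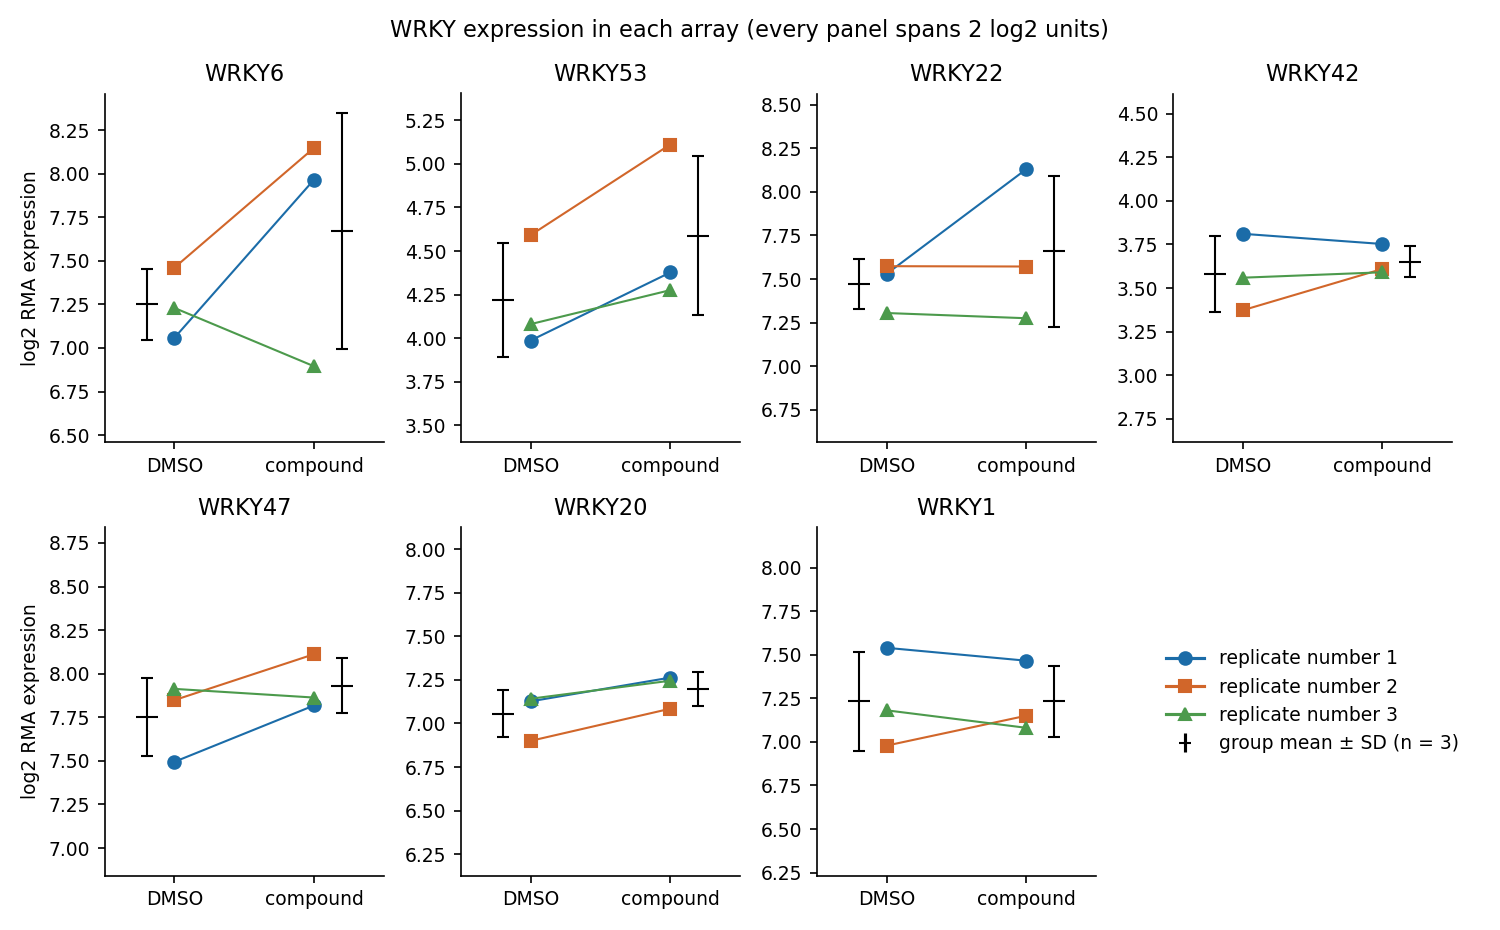
Log2 RMA expression of the 7 WRKY genes (y axis, each panel spanning 2 log2 units) in DMSO and compound arrays (x axis), with a line joining arrays of the same replicate number and a bar for the group mean ± SD (n = 3). The groups overlap in all 7 panels, and WRKY6 has the widest spread with the compound (SD 0.68).

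The senescence members were WRKY6, WRKY53 and WRKY22, which were 3 of 8 loci in that group. WRKY6 encodes a regulator of senescence and pathogen responses that also represses the phosphate exporter gene PHO1. Its level was 7.06, 7.46 and 7.23 in DMSO replicates 1, 2 and 3, and 7.97, 8.15 and 6.89 in compound replicates 1, 2 and 3. Compound replicates 1 and 2 stood above all DMSO arrays, and compound replicate 3 stood below all of them. The means were 7.67 ± 0.68 with the compound and 7.25 ± 0.20 with DMSO (SD, n = 3 each), a log2 fold change of 0.42 (SE 0.33, 95% interval -0.37 to 1.21), a ratio of 1.34. It did not pass limma's test (adjusted p = 0.999, and 0.42 with the block). Single arrays moved the value both ways: it was 0.81 without compound replicate 3 (limma adjusted p = 0.36), 0.27 without compound replicate 1 and 0.18 without compound replicate 2. With the block it was 0.18, 0.29 and 0.80 without replicate number 1, 2 and 3, with adjusted p of 0.791, 0.706 and 0.0539.

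WRKY53 encodes a regulator placed early in leaf senescence and induced by hydrogen peroxide. Its level was 3.99, 4.59 and 4.08 in DMSO replicates 1, 2 and 3, and 4.38, 5.11 and 4.28 in compound replicates 1, 2 and 3. Each compound array exceeded the DMSO array of its own number, but DMSO replicate 2 exceeded compound replicates 1 and 3, so the groups overlapped. The differences within numbers 1, 2 and 3 were 0.39, 0.52 and 0.19 on the log2 scale. The log2 fold change was 0.37 (SE 0.26, 95% interval -0.27 to 1.00, adjusted p = 0.999 by limma). With the block the SE was 0.088, the 95% interval 0.16 to 0.58 and the adjusted p 0.0817, still above the threshold. That fit left 2 residual degrees of freedom, so its SE and interval lean on the variance over all probe sets, which limma uses to moderate that of each gene. Replicate number 2 weighed on the value without the block, which was 0.11 without compound replicate 2 and 0.55 without DMSO replicate 2. Leaving out 1 array without the block leaves the replicate numbers unbalanced between treatments, for WRKY53 as for every other gene here. With the block the log2 fold change was 0.36, 0.29 and 0.45 without replicate number 1, 2 and 3 (limma adjusted p of 0.233, 0.245 and 0.164). The DMSO values of replicates 1 and 3 were close to the quartile below which the dimmest probe sets fall (3.95 to 4.06 in DMSO arrays). Such RMA values were not shown to stand above background, and a difference there can be understated.

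WRKY22 encodes a factor of the flagellin response downstream of MAP kinases, and is also linked to senescence in the dark. Its level was 7.53, 7.57 and 7.31 in DMSO replicates 1, 2 and 3, and 8.13, 7.57 and 7.28 in compound replicates 1, 2 and 3. The arrays of numbers 2 and 3 differed by no more than 0.03 between treatments, and number 1 differed by 0.60. The log2 fold change was 0.19 (SE 0.22, 95% interval -0.34 to 0.72, limma adjusted p = 0.999). With the block the SE was 0.13 and the limma adjusted p 0.569. The log2 fold change rested on compound replicate 1, since without that array it was -0.05. Without DMSO replicate 3 it was 0.11 and without compound replicate 3 it was 0.38.

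The nutrition members were WRKY42 and WRKY47, which were 2 of 4 loci in that group. WRKY42 represses PHO1, as WRKY6 does, and acts in phosphate homeostasis. It was measured at 3.81, 3.37 and 3.56 in DMSO replicates 1, 2 and 3, and at 3.75, 3.61 and 3.59 in compound replicates 1, 2 and 3. All 6 values lay below the lower quartile of their array (3.95 to 4.06). No detection call was made, so they were not shown to stand above background, and a change in WRKY42 could go unseen. The log2 fold change was 0.07 (SE 0.13, limma adjusted p = 0.999), and with the block the SE was 0.086 and the limma adjusted p 0.78.

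WRKY47 is known in Arabidopsis for its part in growth under low boron. Its level was 7.49, 7.85 and 7.91 in DMSO replicates 1, 2 and 3, and 7.82, 8.11 and 7.86 in compound replicates 1, 2 and 3. Only compound replicate 2 stood above all DMSO arrays. The log2 fold change was 0.18 (SE 0.14, 95% interval -0.17 to 0.53, limma adjusted p = 0.999). It was 0.05 without DMSO replicate 1 and 0.09 without compound replicate 2. With the block the SE was 0.095, the 95% interval -0.05 to 0.40 and the limma adjusted p 0.434.

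WRKY20 and WRKY1, of the class with a pair of WRKY domains, were 2 of 22 loci in the group of development and unplaced members. WRKY20 was at 7.13, 6.90 and 7.14 in DMSO replicates 1, 2 and 3, and at 7.26, 7.08 and 7.24 in compound replicates 1, 2 and 3. Like WRKY53 it was higher with the compound in all 3 numbers, by 0.14, 0.18 and 0.10. Such a pattern was found in 2 of 7 genes and in 21.2% of all probe sets. The log2 fold change of WRKY20 was 0.14 (SE 0.11, and 0.074 with the block), with a limma adjusted p of 0.999, and 0.422 with the block. Without DMSO replicate 2 it was 0.06.

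WRKY1, listed as ZAP1 in the gene table, was at 7.54, 6.98 and 7.18 in DMSO replicates 1, 2 and 3, and at 7.47, 7.15 and 7.08 in compound replicates 1, 2 and 3. The treatments had the same mean, 7.23, and the 95% interval of the log2 difference was -0.42 to 0.42, or -0.20 to 0.20 with the block.

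**Figure D2:**
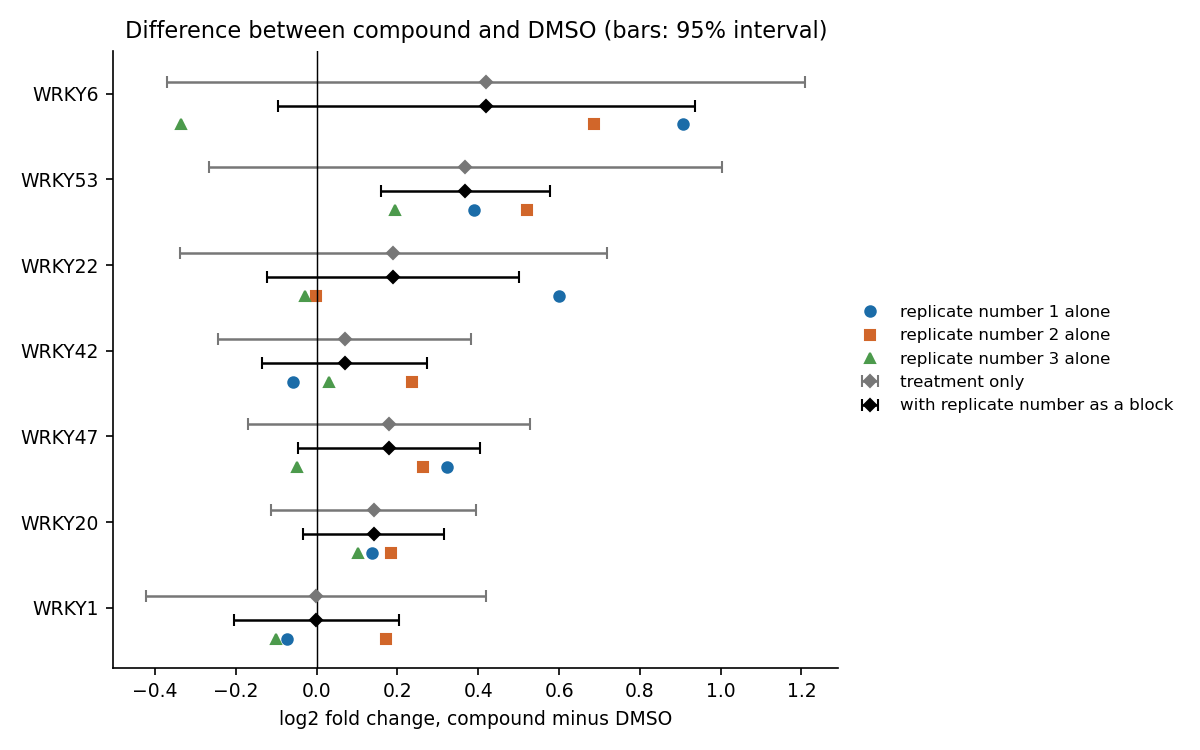
Log2 fold change, compound minus DMSO (x axis), of each WRKY gene, as the limma estimate with its 95% interval without (grey) and with (black) the replicate number as a block, above the difference within each replicate number (coloured symbols). The intervals of all 7 genes take in 0 without the block, and with it those of all but WRKY53 do, whose adjusted p was 0.0817.

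For genes read well above the lower quartile of the arrays, how large a change could have been missed can be read from the intervals. Without the block the 95% interval stayed within 1 log2 unit in either direction, a 2-fold change, for 5 of 7 genes, with WRKY6 and WRKY53 reaching 1.21 and 1.00. With the block it stayed within that limit for 7 of 7, the widest being WRKY6 at -0.10 to 0.94. The intervals are not adjusted for the number of genes. For WRKY42 and WRKY53, with values below or near the lower quartile, they do not bound the change, since a difference there can be understated.

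The differences within a replicate number did not all run alike. The compound array was the higher of its pair in 5 of 7 genes in number 1, in 6 of 7 in number 2 and in 3 of 7 in number 3. The share of all probe sets was not counted for single numbers, so these counts carry no statement on WRKY genes. In 6 of 7 genes number 3 had the lowest difference of the 3 numbers, where 29.6% of all probe sets had it lowest. For WRKY6 the differences were 0.91, 0.69 and -0.33 in numbers 1, 2 and 3. With 1 array for each treatment and number, whether the difference itself varied with the number could not be tested.

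Levels moved with the replicate number in 2 of the 7 genes. In an F test of the replicate number beside treatment (limma, over all probe sets), WRKY53 (adjusted p = 0.0086) and WRKY1 (adjusted p = 0.0422) passed, against 23.2% of all probe sets, so the share of 2 in 7 is near the background. WRKY53 was highest in number 2 under both treatments, where its mean over both arrays was 4.85 against 4.18 in number 1 and 4.18 in number 3. WRKY1 was highest in number 1 under both treatments, with a mean of 7.50 against 7.06 in number 2 and 7.13 in number 3. The call of WRKY1 was lost without any one of DMSO replicates 1, 2 and 3 or compound replicates 1 and 3 (adjusted p of 0.0673 to 0.245) and with arrays centred on their medians (0.0562). The call of WRKY53 was kept without any 1 array. Both calls were lost with treatment left out of the fit (adjusted p of 0.13 for WRKY53 and 0.0713 for WRKY1).

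The other 5 genes missed that test, with adjusted p of 0.106 for WRKY22, 0.163 for WRKY47, 0.166 for WRKY42, 0.17 for WRKY6 and 0.208 for WRKY20. The range between the highest and lowest number was 0.74 log2 units for WRKY6, 0.54 for WRKY22, 0.32 for WRKY47, 0.29 for WRKY42 and 0.20 for WRKY20. In 6 of 7 genes, all but WRKY20, this range exceeded the median of all probe sets, 0.25. Arrays of the same number lay on the same side of their group means in 18 of 21 cases (7 genes, 3 numbers), and in 69.3% of cases over all probe sets. The exceptions were number 1 of WRKY6, number 2 of WRKY22 and number 3 of WRKY47. The order of the 3 numbers was the same under both treatments in 0 of 7 genes, against 38.3% of all probe sets.

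Split into sums of squares, the replicate number held 44.3% (WRKY6) to 90.9% (WRKY1) of the variation among the 6 arrays, with a median of 63.2% over the 7 genes and 62.6% over all probe sets. Treatment held almost nothing for WRKY1 and up to 34.8% for WRKY20, with medians of 20.9% over the 7 genes and 9.84% over all probe sets. Noise alone gives each term a share, and a larger one to the number, which has more degrees of freedom than treatment. The shares are therefore not tests: WRKY6, at 44.3% for the number, missed the F test (limma adjusted p = 0.17), and no gene was called for treatment. What neither term held was 1.94% for WRKY20, 3.22% for WRKY53 and 34.8% for WRKY6. The block therefore narrowed the SE of every one of the 7, by 1.44 to 2.99 times. The median was 1.52 times over the 7 and 1.39 times over all probe sets. WRKY53 gained most, and WRKY6 stayed the least certain in both fits.

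**Figure D3:**
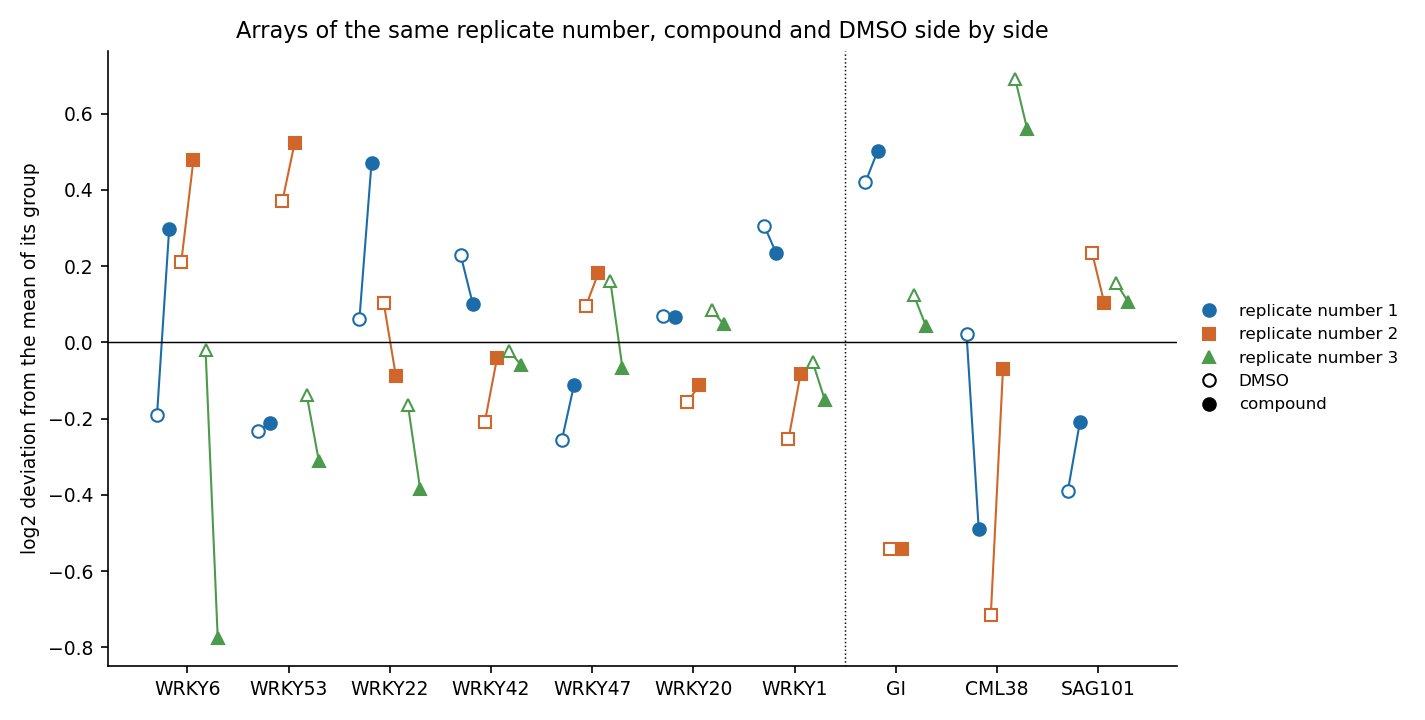
Deviation of each array from the mean of its treatment (y axis, log2 units) for the 7 WRKY genes and, right of the dotted line, GI, CML38 and SAG101, with DMSO open, compound filled and arrays of a number joined. Number 2 of WRKY53 and number 1 of WRKY1 are high under both treatments, and GI is high in number 1 and low in number 2 under both.

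The WRKY genes did not share 1 pattern over the numbers. Of the 7, 4 had their highest mean in number 1 (WRKY1, WRKY20, WRKY22, WRKY42), 3 in number 2 (WRKY6, WRKY47, WRKY53) and 0 in number 3. For WRKY20 the means of numbers 1 and 3 were almost equal (7.195 and 7.193), and number 3 was the highest with DMSO. The share of all probe sets highest in each number was not counted, so this split carries no statement on the family. WRKY53 and WRKY1 ran against each other between numbers 1 and 2.

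Beside the family, 6 lists of genes tied to WRKY action or to conditions that move WRKY genes held 103 entries. Of these, 9 had a probe set annotated to that gene alone and are called measured here. The others may lie on probe sets left unnamed here. Without the block 0 of the 9 passed limma's test between treatments, against 0.343% of all probe sets, and 1 (SAG29) had an unadjusted p below 0.05. With the block 1 rose and 0 fell, against 3.80% of all probe sets called. The riser was SAG29, a senescence-associated sugar transporter gene, from 5.16 to 5.72 (log2 fold change 0.56, SE 0.098 and adjusted p = 0.029 with the block). Of the senescence list 2 of 15 genes were measured, and the other, SAG101, had a log2 fold change of 0.01 (SE 0.088 with the block). Of WRKY partners with a VQ motif, 3 of 11 were measured, and IKU1, which acts in seed growth with WRKY10, had a log2 fold change of -0.17 (SE 0.19). The other VQ genes, AT1G78410 and AT3G18360, were at 0.01 and 0.02. The 1 measured defence target, the defensin gene PDF1.2A, was at 0.00 (SE 0.10), with values of 4.09 to 4.31 in all arrays, close to the lower quartile. None of the 19 entries for MAP kinases and the salicylic acid pathway had a probe set annotated to that gene alone, so none was read here.

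Of these 9 genes, 3 moved with the replicate number (limma F test), a share near the 23.2% of all probe sets. GI, a clock gene with a daily rhythm, was at 9.34, 8.38 and 9.05 in DMSO replicates 1, 2 and 3 and at 9.33, 8.29 and 8.87 in compound replicates 1, 2 and 3 (adjusted p = 0.0023). It was low in number 2, where WRKY53 was high, and high in number 1, where WRKY1 was high. SAG101, a senescence and defence gene, was lowest in number 1 under both treatments (adjusted p = 0.0332). CML38, a calmodulin-like gene induced by wounding, was highest in number 3 under both (adjusted p = 0.0402), and ZAT10, a stress-induced zinc finger gene, did not pass (0.19).

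RNA integrity, read as the 3' minus 5' difference of the actin control, was 2.33 and 2.47 log2 units in number 1, 2.77 and 2.74 in number 2, and 2.77 and 2.72 in number 3 (DMSO first). Number 1, where WRKY1 was highest, had the smallest actin difference under both treatments. The GAPDH difference was smallest in number 2 with DMSO and in number 1 with the compound, at 1.15 and 0.94 in number 1, 1.03 and 1.01 in number 2, and 1.41 and 1.11 in number 3 (DMSO first). The ubiquitin difference ran from 1.46 to 1.73 over the 6 arrays. The part of time of day, wounding or RNA integrity in the WRKY differences between numbers was not tested, and the labels do not say what arrays of a number shared.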

How the data were processed

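The authors deposited log2 values from RMA (submitters' processing notes); the software version is not given in the sources used here. RMA corrects background, sets arrays to common quantiles and summarises probes, so a shift of all transcripts would not show. Titles gave group and replicate number. Of 22810 probe sets, 64 controls were left out. Names came from the platform annotation, updated through the NCBI gene table of TAIR10.1: 13513 of the 22746 had 1 gene, 503 several, and 8730 were unnamed here. No coordinates are given.

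The treatments were tested with limma 3.58.1 under R 4.3.3 (eBayes moderation, treatment only), with replicate number as a block as an alternative, and Benjamini-Hochberg adjustment over all 22746. Fits were tested on simulated data with changes larger than any WRKY difference here, so whether changes of the WRKY size would be found was not tested. An F test of replicate number used the blocked fit. Same-numbered arrays correlated at 0.727 to 0.743 in their deviations from group means, above 0.1 in all 3 pairs, so the numbers were taken as pairing the samples, which the titles call biological replicates. The fit with treatment only leaves this pairing out. Other alternatives were a random block, each array left out, median centring, a minimum mean of 4, and a trended robust prior.

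All measured members are named with every array's value. Members, role groups and lists were chosen with earlier results of these data known. Reading WRKY classes and W-boxes from sequence was planned and not run. The number of arrays limits the precision.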

Additional observations from a re-analysis of the deposited data

How the results depend on the processing

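The count of WRKY genes called between compound and DMSO was 0 in all 14 alternatives. No alternative reversed WRKY6 (0.18 to 0.81), WRKY53 (0.11 to 0.55), WRKY20 (0.06 to 0.20) or WRKY47 (0.05 to 0.29), given as log2 fold changes. WRKY1, at -0.00093, ran from -0.128 to 0.152 without 1 array, turning upward without DMSO replicate 1 or compound replicate 2 or 3, and was 0.0355 and 0.0488 with the block without number 1 and 3. WRKY22 ran from -0.0460 (without compound replicate 1) to 0.381 and was -0.0159 with the block without number 1. WRKY42 ran from -0.0344 (without DMSO replicate 2) to 0.185 and was -0.0137 with the block without number 2. In each of these reversals the adjusted p was above 0.9, and the cause was not tested.

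Over all probe sets, 78 were called between treatments, 865 with the replicate block, 491 with the number as a random block, and 516, 743 and 205 with the block and without number 1, 2 and 3. Without 1 array and with no block the count was 0 to 76, in fits of 3 residual degrees of freedom. The replicate block changed no call of a WRKY gene, and of the 9 genes on the other lists it changed that of SAG29.

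WRKY genes called between replicate numbers were 2, then 1 with arrays centred on their medians (WRKY53), 0 with treatment left out of the fit, and 1 to 2 without 1 array. WRKY6 passed without DMSO replicate 3 (adjusted p = 0.022) and WRKY22 without DMSO replicate 1 (0.0247). Over all probe sets the count was 5284, 2137 with treatment left out, and 1889 to 4615 without 1 array. WRKY42 had no value where a minimum mean of 4 was set. Low signal limits WRKY42 and WRKY53.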
